A study of Mus musculus with 19 samples.

Results

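Whole lungs of *Has2*+/- mice challenged with ovalbumin (OVA) for 8 weeks were compared with whole lungs of *Has2*+/- mice given saline, to describe what chronic allergen does to lung gene expression when 1 copy of *Has2* is lost. The libraries were chosen by their group labels alone: 5 *Has2*+/- OVA libraries and 4 *Has2*+/- saline libraries, 9 of the 19 libraries of the study. The other 10 libraries came from wild-type (WT) mice, 5 on OVA and 5 on saline, and served for the test of whether the response depended on genotype. All mice were female Balb/c, given in the methods as 6 to 8 weeks old. With challenges over 8 weeks, this cannot be the age at which lungs were taken. The *Has2*+/- line had been backcrossed to Balb/c for at least 8 generations. It carried a germline null allele, so that every cell of both *Has2*+/- groups had 1 intact copy. OVA mice were sensitised by intraperitoneal OVA with alum, then received intranasal OVA over 8 weeks, and lungs were taken 24 h after the last challenge. The controls were injected and challenged with saline. The methods do not state alum for them, so effects of OVA and of alum cannot be told apart. No mouse without any *Has2* could be studied, because loss of both copies is lethal in the embryo. The libraries are called by the running number of their column, 6 to 9 for *Has2*+/- saline and 15 to 19 for *Has2*+/- OVA, with 1 library per lung.

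Repeated airway exposure to OVA in sensitised mice is a standard model of allergic asthma. Type 2 lymphocytes release IL-4, IL-5 and IL-13, which act through the transcription factor STAT6 on airway epithelium and macrophages, draw in eosinophils and turn secretory cells of the airway into mucus-producing goblet cells. Hyaluronan is a long sugar polymer of the extracellular matrix that Has1, Has2 and Has3 make at the plasma membrane and that cells bind through CD44. The *Has2* transcript itself was near the limit of detection, with 3, 7, 2 and 7 counts in the saline libraries and 4, 3, 5, 9 and 4 counts in the OVA libraries. In CPM, the counts per 1000000 of the library's TMM-scaled total, the level of *Has2* was 0.899 ± 0.602 CPM (SD, n = 4) on saline and 0.849 ± 0.336 CPM (SD, n = 5) on OVA, a difference smaller than the spread within either group (exact permutation test, two-sided, p = 0.857, adjusted over 64 sparse genes 0.949). The polymer itself was not measured by these libraries.

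Among the largest rises and the clock genes described below, some carry short DNA words in their promoters that are known for the pathways just named, and these stretches are shown so that the genes can be read beside their sequence. TTC followed by 4 bases of any kind and GAA is the spacing preferred by STAT6, TTC followed by 3 bases and GAA is the spacing of other STAT factors, and CACGTG is the E-box bound by the circadian factors CLOCK and ARNTL. Each word reads the same on both strands, so 1 search covers both. Promoters were RefSeq stretches of 250 bases before to 50 bases after the first listed start, on GRCm38.p6, and were found for 10862 of the 14495 genes tested. The word with 4 bases between TTC and GAA occurred in 7.25% of 1020 promoters of genes called higher on OVA (exact 95% interval 5.74 to 9.02), in 4.38% of 844 promoters of genes called lower (3.11 to 5.99) and in 5.21% of all 10862. The word with 3 bases between them occurred in 6.76% of promoters of genes called higher, 4.74% of those called lower and 6.93% of all. CACGTG was in 9.61% of promoters of genes called higher, in 8.77% of those called lower and in 9.76% of all, and in 5 of the 16 promoters matched for the clock list. The stretches below lie before the start, with 35 bases on either side of the word and the word in capitals. *Sprr2a3* (chr3:92285093-92285172, plus strand), *Capn9* (chr8:124575932-124576011, plus strand) and *Chil4* (chr3:106219636-106219714, minus strand) were among the 14 largest rises. Promoters were matched for 10 of the largest rises and 12 of the largest falls. The word with 4 bases was in 3 of the 10 and 0 of the 12. The word with 3 bases was in 2 of the 10 and also in 2 of the 12. *Per1* (chr11:69098748-69098823, plus strand) and *Cry1* (chr10:85185074-85185149, minus strand) were called lower, and *Bhlhe41* (chr6:145865533-145865608, minus strand) was the single clock gene called higher. A match describes the letters of the promoter and is not a binding site measured in these lungs.
Sprr2a3: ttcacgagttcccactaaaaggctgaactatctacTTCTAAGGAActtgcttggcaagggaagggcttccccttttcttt
Capn9: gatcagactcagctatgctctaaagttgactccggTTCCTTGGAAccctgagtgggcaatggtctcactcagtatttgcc
Chil4: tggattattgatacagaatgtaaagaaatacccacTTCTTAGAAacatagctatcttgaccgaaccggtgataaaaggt
Per1: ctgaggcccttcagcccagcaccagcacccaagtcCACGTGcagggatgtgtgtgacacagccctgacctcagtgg
Cry1: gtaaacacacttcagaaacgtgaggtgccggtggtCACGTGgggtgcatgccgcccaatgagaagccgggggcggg
Bhlhe41: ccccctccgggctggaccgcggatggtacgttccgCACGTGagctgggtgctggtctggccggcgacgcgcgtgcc

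The 9 libraries held 4446534 to 7048676 counts assigned to genes, and 14495 of 49585 annotated genes had enough counts to be tested. Several libraries stood apart from others of their group in ways the labels do not name. Saline library 9 was the shallowest and was the highest saline library in many mucus, immunoglobulin and secretory genes, for example 75.3 CPM of *Clca1* where the other 3 had 0.834 to 4.48 CPM. Saline libraries 8 and 9 and OVA library 19 shared a high level of the clock output gene *Dbp* (191, 197 and 132 CPM) where the other 6 had 10.7 to 30.2 CPM, and the hour of collection is not in the labels. Saline library 7 carried skeletal muscle transcripts (1277 CPM summed over 9 markers, against 26.0 to 27.7 CPM in the other saline libraries), and OVA library 18 had 134 CPM of them and 124 counts of the thymocyte gene *Dntt*. Saline library 8 was low in adipocyte transcripts (58.5 CPM over 6 markers, against 160.3 to 182 CPM in the other saline libraries). Counts of calls are therefore given below also without a library where its omission moved them by more than 1.5 times. In whole lung, fewer cells of a type and less RNA per cell cannot be told apart, and this holds for every fall and rise described.

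**Figure D1:**
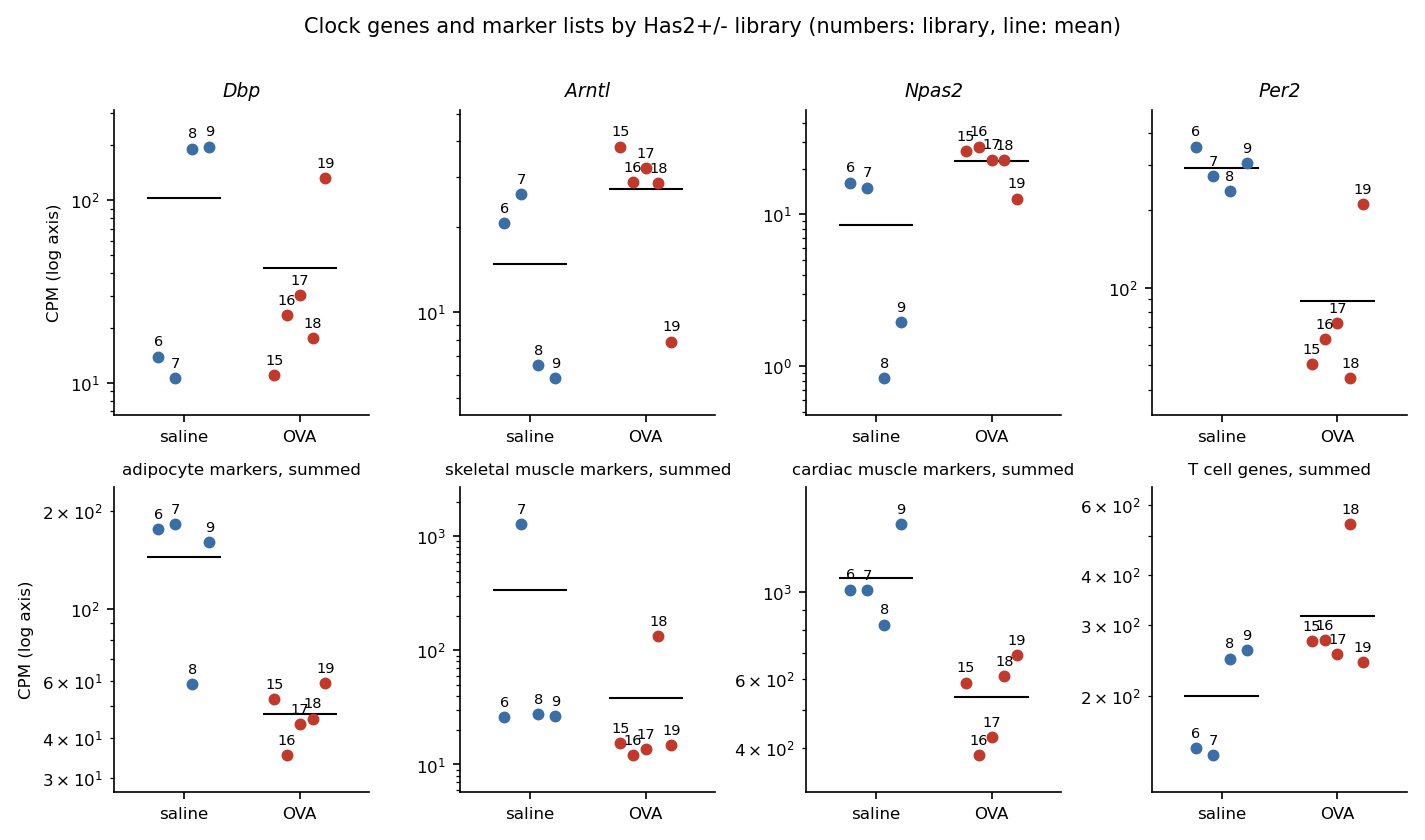
Levels of 4 clock genes (upper row) and of summed marker lists (lower row) in each *Has2*+/- library, in CPM on a log axis, with the library number above each point and the group mean as a line. Libraries 8, 9 and 19 sit with high *Dbp* and low *Arntl*, library 7 with 1277 CPM of skeletal muscle markers, and library 18 with the highest summed T cell genes.

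In *Has2*+/- lungs, 2643 genes (18.2% of 14495) changed on OVA, 1524 higher (10.5%) and 1119 lower (7.72%), at an edgeR adjusted p under 0.01 and a fold above 1.2. Most of the mucus, immunoglobulin, remodelling macrophage, lysosomal and cell cycle genes tested were called higher, and 9 of 12 alveolar type 1 cell genes were called lower. Other lists with many members called lower were those of capillary endothelium (9 of 21), Notch (7 of 17), the TGF-beta family (20 of 44, with 6 higher) and the circadian clock (9 of 19, with 1 higher). In 2657 genes (18.3%) the 5 OVA and 4 saline libraries did not overlap. The median log2 fold change over all tested genes was -0.01, which is the level against which each list below is read. The number of calls depended on single libraries. It was lowest without saline library 6 (1932, of which 716 lower), was 2044 (742 lower) without OVA library 18 and was highest without saline library 9 (3261). Without libraries 7 and 8 it was 1317 (812 higher and 505 lower), without libraries 8, 9 and 19 it was 3398, and in a fit of the *Has2*+/- libraries alone it was 1559 (1039 higher and 520 lower). Without libraries 7 and 8, the members called lower were 3 of capillary endothelium, 4 of Notch, 7 of the TGF-beta family, 2 of the Wnt list, 2 of alveolar fibroblasts and 0 of matrix glycoproteins, and those called higher were 3 of MHC class II, 0 of dendritic cells and 8 of the unfolded protein response. Of the lists given below with none lower, those of arginine enzymes, checkpoint genes, mast cells, remodelling macrophages and the unfolded protein response had 1 member called lower without library 9, the last also without WT OVA library 10, and those of eosinophils and type 2 cytokines had 1 without WT OVA library 11 and OVA library 15.

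**Figure D2:**
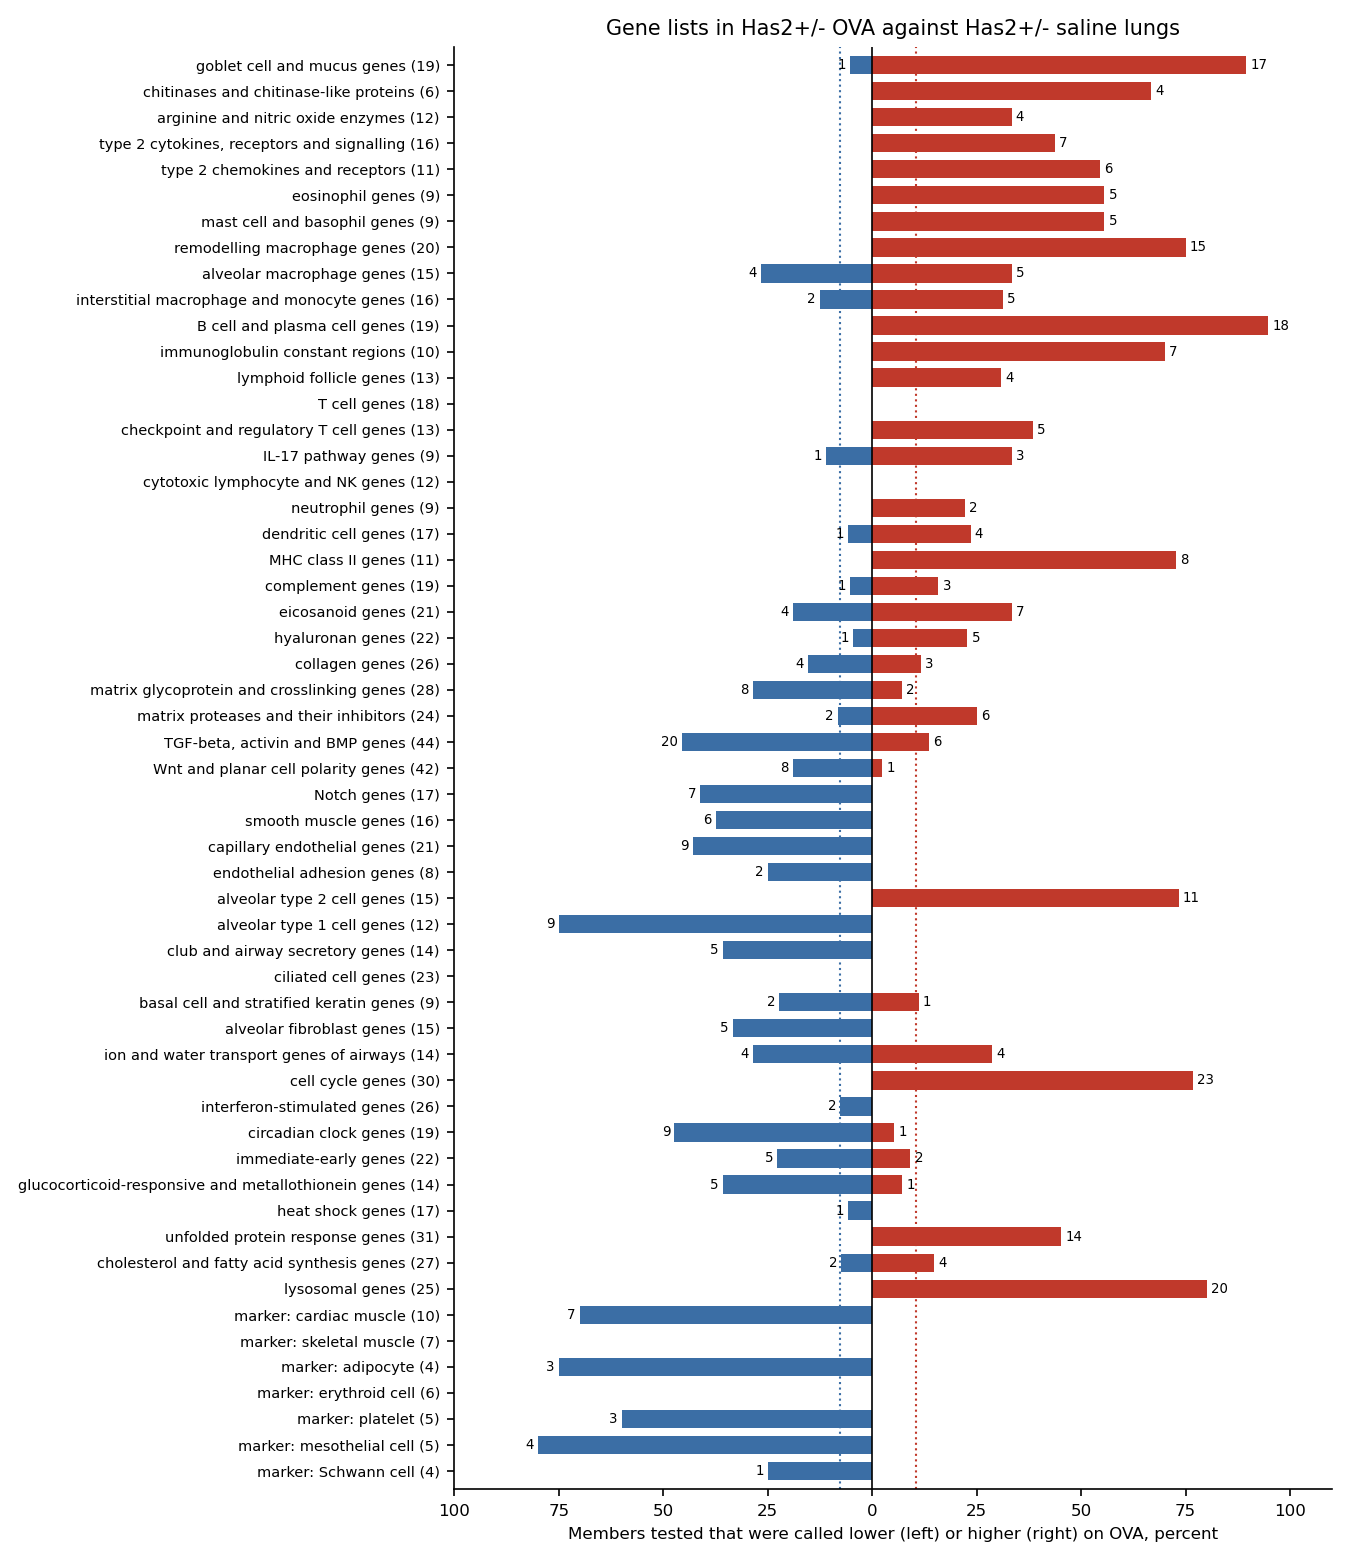
Share of the tested members of each gene list (number tested in parentheses) that were called higher (right, red) or lower (left, blue) on OVA in *Has2*+/- lungs, in percent, with the count beside each bar. Dotted lines are the shares over all tested genes, 10.5% higher and 7.72% lower. B cell and plasma cell genes, goblet cell genes and lysosomal genes reach furthest to the right, and mesothelial, alveolar type 1 and adipocyte genes furthest to the left.

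Goblet cell and mucus genes were among the lists with the largest share called higher. Of 19 members tested, 17 were called higher and 1 lower, with a median log2 fold change of 2.37, and leaving out any 1 library gave 16 to 18. *Clca1* (chr3:145003817-145032776, mm10), a secreted protease of goblet cells, measured 1.02, 4.48, 0.834 and 75.3 CPM on saline and 1097, 2264, 1905, 1422 and 2264 CPM on OVA (log2 fold change 6.55 ± 1.09, SE, adjusted p = 0.000138). Every OVA library lay above every saline library, library 9 being the nearest, and without library 9 the log2 fold changes of *Clca1*, *Muc5ac*, *Muc5b*, *Ern2* and *Pigr*, described next, were larger (9.79, 5.42, 2.49, 5.38 and 3.21). *Muc5ac*, the gel-forming mucin that marks goblet cells, was at 3.05, 3.18, 4.50 and 22.3 CPM on saline and 77.3, 219, 174, 109.6 and 191 CPM on OVA (log2 4.33 ± 0.53). *Muc5b*, the mucin already made by resting airways, went from 208, 153, 228 and 613 CPM to 876, 1181, 1173, 921 and 1391 CPM (log2 1.89 ± 0.32). The goblet cell transcription factor *Spdef* rose by log2 1.80, and *Fcgbp*, *Itln1* and *Bpifb1*, secreted with mucus, rose by log2 4.71, 3.41 and 2.57. *Gcnt3*, which branches mucin sugars, had 1 count in the saline libraries together, and its ratio was 123-fold (95% interval 21.7 to 4887). *Ern2*, the endoplasmic reticulum stress sensor of mucous cells, rose by log2 4.25, and *Pigr*, which carries IgA across the epithelium, by 2.37. *Tff1*, a trefoil peptide too sparse for the fit, had 0 counts in all 4 saline libraries and 5, 7, 11, 4 and 13 counts on OVA, at least 10.5-fold higher when the saline group is set to 3 counts (exact permutation test, two-sided, p = 0.0159, the smallest the design allows, adjusted over 64 genes 0.127). The single fall was *Bpifa1*, a secretory protein of the upper airways, from 132, 106, 113 and 149.9 CPM to 52.3, 40.8, 46.7, 78.8 and 51.2 CPM (log2 -1.21 ± 0.19, adjusted p = 7.73e-05). *Muc5ac*, *Muc5b*, *Spdef*, *Ern2*, *Pigr* and *Bpifa1* were chosen after their values were seen.

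Beside mucus, the largest rises included enzymes and transporters of the airway surface. *Capn9*, a calpain of mucous epithelia, had 3 counts on saline and a ratio of 46.2-fold (95% interval 15.6 to 226). *Fut1*, a fucosyltransferase, and *Slc6a12*, a betaine transporter, had ratios of 110.4-fold (95% interval 19.5 to 4389) and 58.7-fold (95% interval 15.97 to 489). *Sprr2a3*, a cornified envelope protein, and *Awat1*, an acyltransferase that makes wax esters, had 0 counts in every saline library and were at least 23.9-fold and 24.2-fold higher on OVA. These intervals and lower bounds cover counting error only. *Slc26a4*, the chloride and bicarbonate exchanger pendrin, measured 0.725, 1.31, 2.84 and 8.89 CPM on saline and 36.5, 82.2, 57.1, 74.2 and 55.6 CPM on OVA (log2 4.27 ± 0.60, 5.24 without library 9), and the potassium channel *Kcnn4* rose by log2 2.07. Epithelial sodium channel subunits moved the other way, with *Scnn1b* at 48.3, 54.0, 40.7 and 50.8 CPM on saline and 27.8, 25.5, 21.3, 24.9 and 25.9 CPM on OVA (log2 -0.95 ± 0.11) and *Scnn1a* called at log2 -0.58. Over the 14 ion and water transport genes tested, 4 were called higher and 4 lower, with a median of -0.20.

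Chitinases and arginine enzymes are known to be induced by type 2 cytokines in mouse epithelium and macrophages, and some of each were called higher. Of 6 chitinases and chitinase-like proteins tested, 4 were called higher and none lower (median 1.55). *Chil3* (Ym1), made by macrophages, measured 64.9, 99.8, 99.4 and 209 CPM on saline and 1919.8, 3889.7, 1997, 3068 and 3162 CPM on OVA (log2 4.58 ± 0.57). *Chil4* (Ym2), made by airway epithelium, had 3 counts in the saline libraries together and a ratio of 167-fold (95% interval 56.9 to 812). The near-identical sequences of *Chil3* and *Chil4* share reads, so the split between them is uncertain. *Chil1* rose by log2 1.51 and the active chitinase *Chia1* by 1.595. Of 12 arginine and nitric oxide genes, 4 were called higher and 0 lower (median 0.36), and 2 higher without libraries 7 and 8. *Arg1*, the arginase of type 2 macrophages, went from 2.18, 0.561, 0.834 and 0.651 CPM to 8.16, 17.9, 17.8, 6.58 and 25.1 CPM (log2 3.71 ± 0.53, 4.41 without library 6), the arginine importers *Slc7a2* and *Slc7a1* rose by log2 1.39 and 0.54, and *Arg2* was called at log2 0.90, a call lost without each of 7 of the 9 libraries (adjusted p = 0.0372 without library 8).

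The type 2 cytokines themselves were at the edge of detection, whereas some receptors and chemokines of the same axis were called higher. *Il4* had 5, 3, 2 and 1 counts on saline and 4, 3, 4, 8 and 4 on OVA, *Il5* had 4, 1, 2 and 3 against 3, 1, 0, 2 and 4, and *Il13* had 1, 0, 0 and 1 against 1, 2, 2, 1 and 2. None of these differences was detectable at this depth (exact permutation test, two-sided, p = 0.111, 0.587 and 0.0635). Of 16 cytokine, receptor and signalling genes tested, 7 were called higher and 0 lower, with a median of 0.58. *Il33*, the epithelial alarmin, measured 41.3, 60.4, 64.7 and 59.7 CPM on saline and 105, 161, 128, 127 and 84.5 CPM on OVA (log2 1.11 ± 0.20), and its receptor gene *Il1rl1* rose by log2 1.202. *Csf2rb* and *Csf2rb2*, near-identical cytokine receptor chains whose reads may be shared, rose by log2 1.86 and 1.99, *Il9r* by 1.29 and the thymic stromal lymphopoietin receptor *Crlf2* by 0.87. Of 11 type 2 chemokine genes, 6 were called higher (median 1.42), and 3 without libraries 7 and 8. *Ccl6* measured 38.2, 36.8, 21.8 and 24.9 CPM on saline and 206, 232, 200.4, 240.2 and 247 CPM on OVA (log2 2.88 ± 0.21), *Ccl9* rose by log2 2.23, and *Ccl11*, the eotaxin that recruits eosinophils, went from 1.74, 3.18, 1.001 and 3.25 CPM to 7.84, 26.0, 15.03, 14.7 and 15.5 CPM (log2 2.82 ± 0.41). *Ccl8* was called at log2 3.14, with library 9 highest among saline libraries at 12.4 CPM, and the call was lost without each of 4 libraries, while the log2 fold change was 4.75 without library 9 (adjusted p = 0.0184 without library 6). *Il33*, *Crlf2* and *Ccl8* were chosen after their values were seen.

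Some eosinophil and mast cell transcripts that were low on saline were higher on OVA. Of 9 eosinophil genes tested, 5 were called higher and 0 lower (median 1.98), 3 without saline library 6 or 8 and 2 without both 7 and 8. The single negative member of that list was at log2 -1.10 with an unadjusted edgeR p under 0.05, a level that the 8 positive members also passed. *Rnase2a*, an eosinophil-associated ribonuclease with close paralogues, measured 0, 0, 1.001 and 1.52 CPM on saline and 11.2, 27.7, 17.997, 16.9 and 16.9 CPM on OVA (log2 4.92 ± 0.61, 5.69 without library 9). The eotaxin receptor *Ccr3* was at 0.145, 0.187, 0.167 and 0.434 CPM on saline and 4.001, 9.60, 2.97, 6.11 and 0.383 CPM on OVA (log2 4.26 ± 0.83), and OVA library 19 fell within the saline range. The IL-5 receptor *Il5ra* rose by log2 1.98, and *Cebpe*, a granule transcription factor, was called at log2 3.06 but not without library 6, 7, 8 or 18 (adjusted p = 0.0183 without library 8). *Epx*, the eosinophil peroxidase that defines the lineage, had 0 counts on saline and 2, 4, 2, 5 and 0 on OVA, a difference not detectable at this depth (exact permutation test, two-sided, p = 0.0794). *Prg2*, the major basic protein of the granule, was at 0.290, 0, 0 and 0.434 CPM and 0.960, 2.59, 1.05, 1.72 and 1.15 CPM and was not called (log2 2.93 ± 0.85, adjusted p = 0.0124). Of 9 mast cell and basophil genes, 5 were called higher and none lower (median 0.92), and 2 without libraries 7 and 8, while the summed level of the list overlapped between groups, at 185 to 332 CPM on saline and 165 to 275 CPM on OVA. *Mcpt1*, a mucosal mast cell protease, had 0 counts in every saline library and 2.56, 3.14, 3.49, 2.51 and 2.11 CPM on OVA, at least 21.0-fold higher. *Mcpt2* had 2 saline counts and a ratio of 26.4-fold (95% interval 7.03 to 223), and *Hdc* and *Hpgds*, which make histamine and prostaglandin D2, rose by log2 0.92 and 0.98.

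Macrophage genes of tissue remodelling and their lysosomal enzymes rose together. Of 20 remodelling macrophage genes, 15 were called higher and none lower (median 1.75). *Mmp12* (chr9:7344381-7369499, mm10), the macrophage elastase, measured 4.50, 3.92, 11.3 and 16.1 CPM on saline and 417, 919, 756, 744 and 1166 CPM on OVA (log2 6.52 ± 0.44, adjusted p = 2.98e-09). *Gpnmb*, a glycoprotein of lipid-laden macrophages, went from 11.03, 7.10, 4.84 and 6.73 CPM to 302, 681, 584, 611 and 819 CPM (log2 6.31 ± 0.52). The lipid receptor *Trem2* rose by log2 3.76, the lectin *Lgals3* by 2.85 and the matrix phosphoprotein *Spp1* by 1.94. *Retnla* (RELM-alpha) was at 12.2, 14.01, 9.51 and 163 CPM on saline and 281, 799.9, 435, 420.1 and 538 CPM on OVA and was called at log2 3.36 ± 0.81, but not without saline library 6, 7 or 8 (adjusted p = 0.0163 without library 7), and without library 9, the highest saline library, its log2 fold change was 5.38. Of 25 lysosomal genes, 20 were called higher and none lower, all 25 were positive, and the median was 0.98. *Ctsk*, a collagen-degrading cathepsin, measured 12.3, 11.2, 14.3 and 28.9 CPM on saline and 169, 299.8, 229, 252 and 359 CPM on OVA (log2 4.001 ± 0.36). The proton pump subunit *Atp6v0d2* rose by log2 2.82, *Cd68* by 2.81, *Ctsd* by 2.12, *Ctsb* by 1.66 and the hexosaminidase *Hexa* by 1.31. *Retnla*, *Ctsd* and *Ctsb* were chosen after their values were seen.

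Resident macrophage and monocyte genes did not move as 1 group. Of 15 alveolar macrophage genes, 5 were called higher and 4 lower (median 0.38). *Itgax* (CD11c) measured 45.3, 42.8, 61.0 and 85.0 CPM on saline and 241, 388, 318, 293 and 414 CPM on OVA (log2 2.51 ± 0.24), and *Mrc1* and *Abcg1* rose by log2 0.80 and 0.75. The falls in that list, *Cidec*, *Fabp4*, *Fabp1* and a carbonic anhydrase, are of genes also made outside macrophages. *Cidec* and *Fabp4*, lipid droplet and fatty acid binding proteins shared with fat cells, fell with log2 values of -2.30 and -2.16, and their saline levels followed the adipocyte markers, with library 8 lowest at 11.8 and 18.7 CPM. Of 16 interstitial macrophage and monocyte genes, 5 were called higher and 2 lower (median 0.70), 9 higher without library 9 or WT saline library 2, and 1 lower without library 6, 15 or 17. *Ly6c2*, a monocyte surface protein, went from 8.27, 8.78, 11.2 and 7.81 CPM to 43.8, 55.6, 62.4, 49.5 and 32.4 CPM (log2 2.43 ± 0.18), and *Ms4a7*, *Cx3cr1* and *Apoe* rose by log2 2.63, 1.29 and 0.76.

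Antibody genes were among those with the largest log2 fold changes, led by *Ighg1*. Immunoglobulin genes took 0.0588 to 0.122% of the counts of saline libraries and 1.53 to 2.72% of those of OVA libraries, with library 19 the lowest on OVA and library 9 the highest on saline. *Ighg1* (chr12:113325240-113330523, mm10), the constant region of IgG1, measured 6.67, 4.11, 5.67 and 52.1 CPM on saline and 8291, 11096, 13086, 9311 and 5663 CPM on OVA (log2 9.18 ± 0.88, adjusted p = 2.23e-07, log2 10.73 without library 9). Of 10 constant regions tested, 7 were called higher and none lower (median 3.60). *Ighe*, the IgE constant region, went from 0.290, 0, 0.667 and 0.868 CPM to 11.7, 15.1, 32.5, 12.7 and 4.98 CPM (log2 5.06 ± 0.70), *Igha* rose by log2 4.44, *Ighg2b* by 4.39 (5.45 without library 9), *Ighm* by 2.81 and the light chain regions *Igkc* and *Iglc2* by 4.47 and 2.65. *Ighg3* was not called (log2 -1.29 ± 0.99997, adjusted p = 0.361). Saline library 9 held 167 CPM of it where the other 3 had 3.92 to 6.84 CPM and the OVA libraries 11.4 to 26.6 CPM, and without library 9 its log2 fold change was 1.75. *Ighe*, *Ighg2b*, *Ighm* and *Ighg3* were chosen after their values were seen. All 172 variable segments tested were positive (median 5.10) and 157 were called higher, 86 of 92 heavy chain, 69 of 77 kappa and 2 of 3 lambda segments. The filter asked for at least 10 counts in enough libraries of any group, so segments sparse on saline could enter through OVA libraries alone. The shared sign and the median are therefore partly set by the filter and are a description only. The kappa segment *Igkv6-23* measured 1.31, 0.747, 1.501 and 1.52 CPM on saline and 80.7, 56.7, 53.8, 64.2 and 43.9 CPM on OVA (log2 5.54 ± 0.33), and *Igkv5-39*, *Ighv5-9-1*, *Igkv14-111*, *Igkv6-17* and *Ighv1-64* rose by log2 6.22, 6.10, 6.03, 5.90 and 5.24. Without library 6 that of *Ighv5-9-1* was 8.04, and without library 9 that of *Igkv14-111* was 6.79. Segments of 1 family are similar in sequence, and counts can be split between them.

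The genes of the cells that make antibody rose with it. Of 19 B cell and plasma cell genes tested, 18 were called higher and none lower (median 1.79). *Jchain*, which joins secreted IgA and IgM, measured 62.7, 65.8, 75.2 and 109.8 CPM on saline and 2011, 2239.7, 1931, 2324 and 1459.6 CPM on OVA (log2 4.67 ± 0.28, adjusted p = 5.99e-10). *Derl3* and *Mzb1*, of the secretory pathway of plasma cells, rose by log2 3.67 and 3.77, the plasma cell transcription factor *Irf4* by 2.66, the BAFF and APRIL receptor *Tnfrsf13b* by 2.05 and the B cell receptor chain *Cd79a* by 1.86. The germinal centre genes *Rgs13* and *Nuggc* went the same way, *Rgs13* from 0 counts to 3.04, 3.14, 3.84, 2.51 and 0.383 CPM and *Nuggc* from 0, 0.187, 0.167 and 0.868 CPM to 14.6, 17.4, 18.2, 15.2 and 13.2 CPM (log2 5.77 ± 0.43, 6.89 without library 9). Of 13 lymphoid follicle genes, 4 were called higher and 0 lower (median 0.36), among them *Lta* at log2 2.09, *Il7r* at 1.25 and the follicle homing receptor *Cxcr5* at 1.01. *Ltb* was called at log2 0.86 but not without each of 5 libraries (adjusted p = 0.0288 without library 6). Of 31 unfolded protein response genes, which expand secretory capacity, 14 were called higher and none lower (median 0.49), and 9 without library 9. *Edem1* measured 143, 125, 109.9 and 118 CPM on saline and 318, 365, 313, 353 and 255 CPM on OVA (log2 1.37 ± 0.12), and *Sdf2l1*, *Creld2*, *Edem2* and *Xbp1* rose by log2 1.71, 1.68, 1.04 and 0.95. *Mzb1*, *Cd79a* and *Sdf2l1* were chosen after their values were seen.

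**Figure D3:**
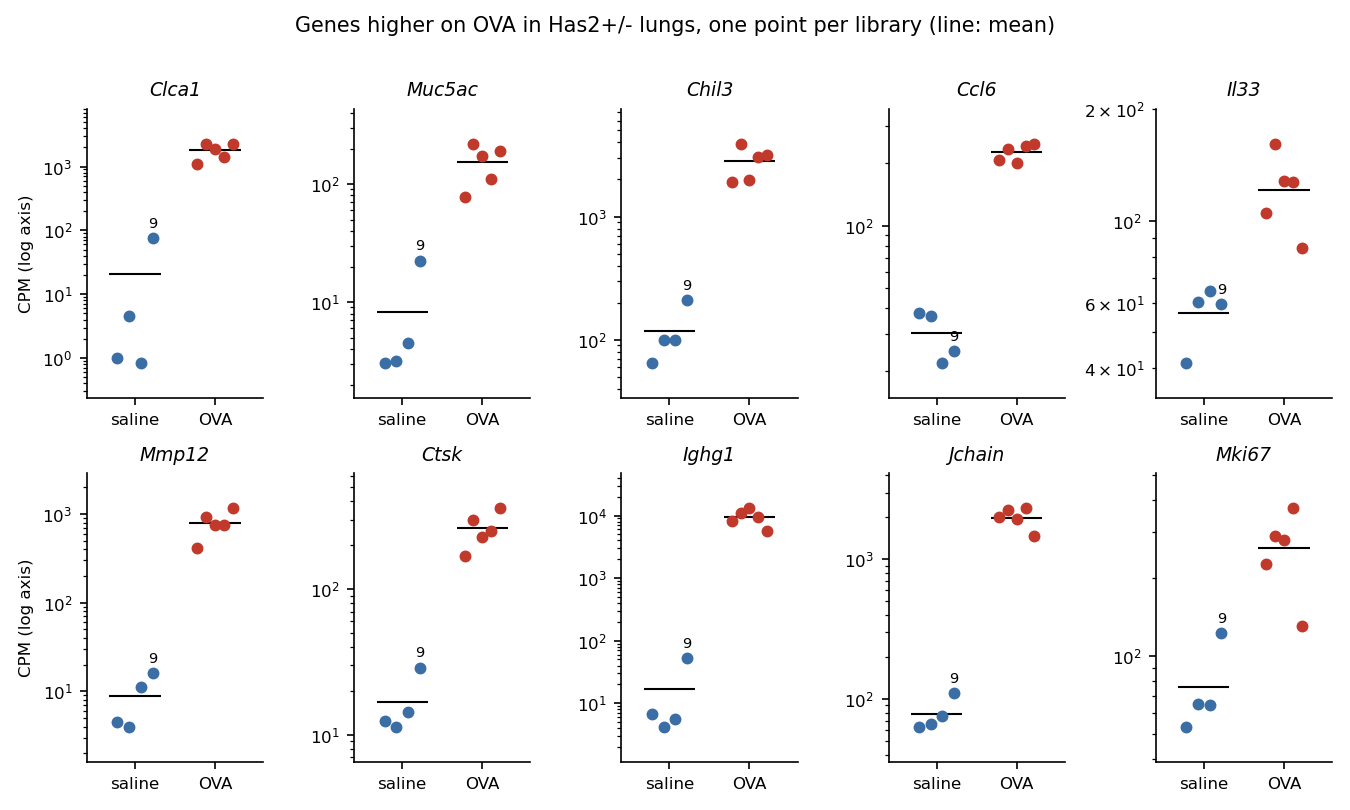
Levels of 10 genes that rose on OVA, in CPM on a log axis, with 1 point per *Has2*+/- library, saline in blue and OVA in red, and the group mean as a line. Every OVA point lies above every saline point, and saline library 9, which is numbered, is the highest saline point for *Clca1*, *Muc5ac*, *Chil3*, *Mmp12*, *Ctsk*, *Ighg1*, *Jchain* and *Mki67*.

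T cell genes were positive in all 18 members tested (median 0.64), yet none was called, while inhibitory receptors and their ligands were. At an unadjusted p under 0.05, 12 of the 18 were higher. DESeq2 called 2, and edgeR called 1 without library 8, 15, 17 or 19, 5 without library 9 and 12 without libraries 8, 9 and 19. *Lck*, the T cell receptor kinase, was at 16.98, 18.1, 28.2 and 28.2 CPM on saline and 32.6, 34.5, 31.8, 99.1 and 27.8 CPM on OVA (log2 0.997 ± 0.29, adjusted p = 0.0133), and *Trbc2* at 6.67, 7.29, 9.17 and 8.89 CPM and 10.9, 14.2, 9.78, 38.5 and 10.9 CPM (log2 1.09 ± 0.33, adjusted p = 0.0179). Library 18 was the highest in both and was also the library with thymus transcripts, whose 6 markers summed to 7.98 to 11.9 CPM on saline and 5.77 to 45.4 CPM on OVA, and their part in the T cell values was not tested. *Lck* was called without library 15 or 19 (adjusted p = 0.00976 and 0.00601). Of 13 checkpoint and regulatory T cell genes, 5 were called higher and none lower (median 0.98), and 2 without libraries 7 and 8. *Cd274* (PD-L1) measured 17.7, 20.9, 27.2 and 29.7 CPM on saline and 64.2, 74.8, 57.5, 66.2 and 59.2 CPM on OVA (log2 1.44 ± 0.20), *Pdcd1lg2* (PD-L2) rose by log2 2.58, *Pdcd1* (PD-1) by 2.02 and *Tigit* by 1.86, the last 2 by 2.61 and 2.61 without library 9. No gene of 12 for cytotoxic lymphocytes and NK cells was called (median 0.07), with 2 higher at an unadjusted p under 0.05, none called by DESeq2 and 1 called without library 8 or 9. The chemokine *Ccl5* was at 7.54, 7.10, 12.7 and 9.33 CPM and 13.4, 13.1, 12.8, 12.4 and 14.2 CPM (log2 0.52 ± 0.15, adjusted p = 0.0139) and was called without library 8 (adjusted p = 0.000944).

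Of 30 cell cycle genes, 23 were called higher and none lower, all 30 were positive, and the median was 1.39. The proliferation marker *Mki67* measured 53.0, 65.0, 64.4 and 122 CPM on saline and 227, 290.0, 279, 371 and 131 CPM on OVA (log2 1.78 ± 0.30), with library 19 the lowest on OVA and just above library 9. *Plk1* and *Cenpe*, of the mitotic spindle, rose by log2 1.78 and 1.72, and the cyclin *Ccnb1* by 2.41, with library 19 inside the saline range at 1.92 CPM. *Top2a*, chosen after its values were seen, was called at log2 1.67 but not without library 6 (adjusted p = 0.0109). This count was among the least stable of the lists. It was 13 without library 6, 14 without library 7, 10 in a fit of the *Has2*+/- libraries alone and 1 without libraries 7 and 8.

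Antigen presentation and other immune lists moved in part. Of 11 MHC class II genes, 8 were called higher, all 11 were positive (median 0.89), and the count was 3 without library 7, 4 without library 6 or 16 and 5 without library 8. *Ctss*, the protease that trims the invariant chain, measured 70.4, 83.9, 86.9 and 121 CPM on saline and 384, 471, 487, 456 and 599 CPM on OVA (log2 2.41 ± 0.24), and the B cell class II genes *H2-Ob* and *H2-DMb2* rose by log2 1.503 and 1.01. The invariant chain *Cd74* was called at log2 0.80, and just missed without library 7 (adjusted p = 0.0105). Of 17 dendritic cell genes, 4 were called higher and 1 lower (median 0.68), 1 higher without library 6, 2 without library 7 and 10 without library 9, when 2 were lower. *Ccl17*, a chemokine for type 2 T cells, rose by log2 1.42, and the dendritic cell factor *Zbtb46*, also expressed by endothelium, fell by 0.35 on the log2 scale. *Cd209a* and *Cd86* were called at log2 1.08 and 1.06, but not without library 6 (adjusted p = 0.0116 and 0.0128), the latter also not without library 7. Of 9 neutrophil genes, 2 were called higher and none lower (median 0.25). They were *Chil3*, which macrophages also make, and *Retnlg*, at 1.16, 0.747, 2.001 and 1.95 CPM on saline and 9.60, 15.3, 4.72, 10.02 and 4.22 CPM on OVA (log2 2.58 ± 0.46). The neutrophil alarmin *S100a8* and the collagenase *Mmp8* overlapped between groups (log2 0.34 ± 0.38 and 0.70 ± 0.42). Of 9 IL-17 pathway genes tested, 3 were called higher and 1 lower (median 0.51), 1 higher without libraries 7 and 8, 2 lower without library 19, and 0 lower without library 6, 7, any of 15 to 18, or WT saline library 3, 4 or 5. *Lcn2*, a siderophore-binding target of IL-17, measured 34.4, 30.5, 65.4 and 145 CPM on saline and 258, 325, 261, 299 and 276 CPM on OVA (log2 2.06 ± 0.44, 2.71 without library 9), and the receptors *Ccr6* and *Il17ra* rose by log2 1.16 and 0.51. *Il21*, a cytokine of follicular helper T cells, had 1, 0, 0 and 1 counts on saline and 5, 4, 6, 2 and 2 on OVA (exact permutation test, two-sided, p = 0.0159, adjusted 0.127).

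Of 19 complement genes, 3 were called higher and 1 lower (median 0.31), 6 higher without library 9 or WT saline library 2, 0 lower without library 6 or 16 and 2 lower without library 9. The anaphylatoxin receptor *C3ar1* measured 6.09, 6.35, 5.17 and 7.59 CPM on saline and 20.5, 30.3, 30.8, 28.3 and 34.1 CPM on OVA (log2 2.20 ± 0.23), and the B cell complement receptor *Cr2* rose by log2 1.57. *Cfi*, a protease that inactivates C3b, was called at log2 2.35 but lost that call without each of 8 of the 9 libraries (adjusted p = 0.0311 without library 7). The fall was *Cfd*, the factor D protease known from fat cells, at 140.0, 95.1, 17.8 and 104 CPM on saline and 26.1, 12.7, 21.3, 18.9 and 20.9 CPM on OVA (log2 -2.15 ± 0.52, -1.83 and adjusted p = 0.0192 without library 6, and not called without library 16 either), with library 8 lowest on saline as for the adipocyte markers. Of 21 eicosanoid genes, 7 were called higher and 4 lower (median 0.32), 2 lower without library 6, 7 or 17. The prostacyclin receptor *Ptgir*, the thromboxane synthase *Tbxas1* and the epidermal-type lipoxygenase *Alox12e* rose by log2 2.30, 1.24 and 2.83, while the prostacyclin synthase *Ptgis* fell from 93.9, 72.5, 83.7 and 74.2 CPM to 53.9, 50.8, 50.7, 44.5 and 54.8 CPM (log2 -0.67 ± 0.10). Of 27 cholesterol and fatty acid synthesis genes, 4 were called higher and 2 lower (median 0.21), 2 higher without library 6, 16 or 18 and 1 lower without library 6, 7 or any of 15 to 18. *Dhcr7* and *Mvd*, of cholesterol synthesis, rose by log2 1.39 and 1.15, and the elongase *Elovl6* fell by 1.09 on the log2 scale. *Elovl5* was called at log2 -0.43, and the call was lost without each of 7 of the 9 libraries (adjusted p = 0.0412 without library 6). Of 26 interferon-stimulated genes, 2 were called lower (7.69%, beside 7.72% of all tested genes) and none higher, with a median of -0.35. *Ifit3* measured 23.9, 41.3, 25.5 and 24.7 CPM on saline and 14.7, 16.1, 15.7, 14.2 and 21.9 CPM on OVA (log2 -0.81 ± 0.15), *Ifit2* was called at log2 -0.56 but not without each of 5 libraries (adjusted p = 0.0223 without library 7), and the list count was 4 without library 6 and 1 without library 7, 8, 15, 16 or 17.

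The alveolar epithelium split by cell type. Of 15 alveolar type 2 cell genes, 11 were called higher and none lower, all 15 were positive, and the median was 0.40. *Lyz2*, which macrophages also express, measured 2231, 2429, 2110.0 and 1871 CPM on saline and 3989, 4244, 4049, 4375 and 4504 CPM on OVA (log2 0.97 ± 0.12), and *Hc*, *Cxcl15* and the surfactant protein *Sftpd* rose by log2 0.97, 1.11 and 0.79. *Sftpc*, the surfactant protein that defines the cell, overlapped between the groups and was not called, at 8945, 7479, 8455 and 6139 CPM and 8263, 8553, 10026, 8215 and 10240.0 CPM (log2 0.22 ± 0.11). The count was 6 in a fit of the *Has2*+/- libraries alone. Of 12 alveolar type 1 cell genes, 9 were called lower and none higher, all 12 were negative (median -0.61), and leaving out any 1 library gave 8 to 10. *Hopx*, a transcriptional cofactor of type 1 cells, measured 372, 335, 291 and 202 CPM on saline and 184, 183, 189.9, 168 and 156 CPM on OVA (log2 -0.77 ± 0.13). The water channel *Aqp5* was at 128, 102, 161 and 146 CPM and 82.7, 75.9, 84.0, 73.7 and 87.2 CPM (log2 -0.73 ± 0.12), and *Cav1* and *Gprc5a* fell with log2 values of -0.85 and -0.62. *Ager*, the most used type 1 marker, was called at log2 -0.39 but not without each of 4 libraries (adjusted p = 0.0451 without library 6). *Sftpd*, *Sftpc* and *Ager* were chosen after their values were seen.

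In the airway epithelium, some club cell genes were called lower and no ciliated cell gene was called. Of 14 club and airway secretory genes, 5 were called lower and none higher (median -0.57), 8 without library 7 or 19 and 9 by DESeq2, and 2 were called higher without library 9. The glutathione transferase *Gsta3* measured 110.4, 103, 64.0 and 67.9 CPM on saline and 32.2, 24.9, 30.9, 26.8 and 41.4 CPM on OVA (log2 -1.47 ± 0.15, adjusted p = 4.55e-07). *Cyp2f2*, the cytochrome that marks mouse club cells, was at 1832, 1616, 1784 and 2688 CPM and 1241, 949, 1087, 1019 and 1055 CPM (log2 -0.89 ± 0.13), and *Aldh1a1* and *Scgb3a2* fell with log2 values of -0.96 and -0.99. *Scgb1a1*, the uteroglobin of club cells chosen after its values were seen, was not called (log2 -0.58 ± 0.18, adjusted p = 0.0176), with saline library 9 at 18102 CPM and the other 3 at 7831 to 9216 CPM. It was called without library 8 (adjusted p = 0.00573), and without library 9 its value was -0.22. None of 23 ciliated cell genes was called by edgeR (median -0.04), with 2 lower at an unadjusted p under 0.05, 1 called by DESeq2 and 2 higher without library 9. The microtubule gene *Tppp3* came closest (log2 -0.44 ± 0.14, adjusted p = 0.0186) and was called without library 7 or 15 (adjusted p = 0.00714 and 0.00774). Library 9 had the highest summed level of ciliated genes, 2075 CPM, where the other 8 had 1162 to 1523 CPM. Of 9 basal cell and keratin genes, 1 was called higher, *Sprr2a3*, and 2 lower, *Krt7* and *Krt19* of simple epithelia, with log2 values of -0.54 and -0.43 (list median -0.04). A second member was called higher without WT saline library 3.

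Hyaluronan genes showed no common direction. Of 22 members tested, 5 were called higher and 1 lower (median -0.16), 2 higher without library 6 and 3 without library 7, and 3 lower without library 8 or 9 and 2 without library 19 or WT OVA library 14. The receptor *Cd44* measured 138, 159, 166 and 194 CPM on saline and 249, 308, 263, 281 and 256 CPM on OVA (log2 0.72 ± 0.12), with no overlap. *Itih4*, of the family whose heavy chains are linked to hyaluronan, rose by log2 1.84, and *Hmmr*, a hyaluronan receptor that also acts on the mitotic spindle, was called at log2 1.59 but narrowly not without library 6 (adjusted p = 0.0103). *Has1* was the synthase called lower, at 5.08, 7.29, 8.34 and 8.68 CPM on saline and 4.16, 4.06, 2.80, 3.91 and 2.30 CPM on OVA (log2 -1.07 ± 0.22), while *Has3* was not called, at 27.1, 24.9, 23.2 and 26.5 CPM and 28.5, 31.95, 29.5, 27.4 and 36.2 CPM (log2 0.27 ± 0.12). The lymphatic receptor *Lyve1* was at 384, 495, 171 and 156 CPM and 181, 166, 158, 122 and 107 CPM and was not called (log2 -1.04 ± 0.32, adjusted p = 0.0176), though it was without library 8 or 9 (adjusted p = 0.00757 and 0.00398). *Has3* and *Lyve1* were chosen after their values were seen.

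Matrix genes moved in both directions, with more falls than rises among structural genes. Of 26 collagen genes, 3 were called higher and 4 lower (median -0.09). *Col24a1*, a fibrillar collagen, measured 1.02, 0.561, 1.501 and 2.39 CPM on saline and 16.2, 22.3, 37.0, 23.6 and 38.0 CPM on OVA (log2 4.35 ± 0.34), and *Col12a1*, which coats collagen fibrils, fell from 111, 119, 109 and 70.5 CPM to 33.4, 35.8, 43.2, 33.7 and 31.6 CPM (log2 -1.53 ± 0.15). *Col4a3*, of alveolar basement membrane, fell by 0.40 on the log2 scale. *Col3a1*, the fibrillar collagen of fibrosis, was called at log2 0.62, with library 9 inside the OVA range, and the call was lost without each of 5 libraries (adjusted p = 0.0267 without library 7). *Col23a1* was called at log2 -0.37 but not without library 6 or 18 (adjusted p = 0.0194 without 6). Single libraries moved the collagen counts to 1 to 5 higher and 2 to 5 lower, with 1 higher without library 6, 7, 8, 16 or 17, 5 higher without library 9 and 2 lower without library 6 or 18. Of 28 matrix glycoprotein and crosslinking genes, 2 were called higher and 8 lower (median -0.20), 1 higher without library 8, 15, 16 or 17, and 2 lower without library 6, 3 without library 7, 4 without library 16, 18 or 19 and 5 without library 17. *Cyr61* and *Ctgf*, matricellular targets of YAP, fell with log2 values of -1.07 and -0.91. *Eln*, the elastin gene, was called at log2 1.16 and *Postn*, a matricellular protein associated with IL-13, at -0.48, and *Loxl2*, a collagen crosslinker, at -0.57. These 3 calls were lost without 6, 8 and 2 single libraries (adjusted p = 0.0249 without library 8, 0.0486 without library 7 and 0.0182 without library 6). Of 24 proteases and inhibitors, 6 were called higher and 2 lower (median 0.18). Besides *Mmp12*, *Mmp19* measured 37.4, 29.7, 14.5 and 22.6 CPM on saline and 55.5, 146, 103, 105 and 126 CPM on OVA (log2 2.02 ± 0.27), *Mmp14*, *Adam19* and the collagenase *Mmp13* rose by log2 0.88, 0.63 and 2.42, and the protease inhibitor *Timp3* fell from 241, 213, 174 and 118 CPM to 92.0, 90.9, 99.8, 89.9 and 95.1 CPM (log2 -0.9996 ± 0.14). *Col3a1*, *Eln*, *Postn*, *Mmp13* and *Timp3* were chosen after their values were seen.

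Among signalling pathways of lung structure, the genes called were mostly lower. Of 44 TGF-beta, activin and BMP genes, 20 were called lower and 6 higher (median -0.43), 13 lower without library 18 and 3 higher without library 7 or 17. *Inhba*, the activin A subunit, measured 2.18, 2.24, 0.667 and 3.25 CPM on saline and 20.8, 33.4, 22.5, 24.7 and 17.3 CPM on OVA (log2 3.53 ± 0.39), the opposite direction to most calls of the list. *Tgfb2* was at 31.9, 32.3, 43.4 and 37.3 CPM and 24.5, 16.8, 16.2, 17.7 and 23.8 CPM (log2 -0.87 ± 0.14), the BMP receptors *Bmpr1b* and *Bmpr2* fell with log2 values of -0.91 and -0.71, and the BMP targets *Id1* and *Smad6* with -0.97 and -0.70. *Tgfb1*, the ligand most linked to airway fibrosis, was called at log2 0.41, from 103, 73.8, 112 and 93.7 CPM to 131, 127, 139.8, 118 and 121 CPM, but not without library 7 or 17 (adjusted p = 0.013 without 7). Of 42 Wnt and planar cell polarity genes, 8 were called lower and 1 higher (median -0.24), 4 lower without library 6, 16, 17 or 18, 5 lower without library 7 or WT saline library 2, 3, 4 or 5, and 2 higher without library 9. The receptors *Fzd4* and *Lrp6* fell with log2 values of -0.81 and -0.43, the ligand *Wnt3a* with -0.79, and the Wnt antagonist *Sfrp1* rose by log2 0.84. Of 17 Notch genes, 7 were called lower and none higher (median -0.39, 16 negative), 3 without library 6 and 4 without library 8. The endothelial receptor *Notch4* measured 570.5, 418, 404 and 412 CPM on saline and 325, 276, 302, 262 and 275 CPM on OVA (log2 -0.65 ± 0.12), and *Notch3* and the ligand *Jag1* both fell by 0.45 on the log2 scale. The ligand *Dll1* was called at log2 -0.64 but not without library 6 (adjusted p = 0.0117). *Hes5*, a Notch list member too sparse for the fit, went the other way, with 0, 1, 1 and 0 counts on saline and 4, 4, 4, 7 and 1 on OVA. Its exact permutation test (two-sided) gave p = 0.0159 on CPM, adjusted 0.127, and p = 0.0476 on raw counts. *Tgfb1*, *Bmpr2*, *Smad6* and *Hes5* were chosen after their values were seen.

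**Figure D4:**
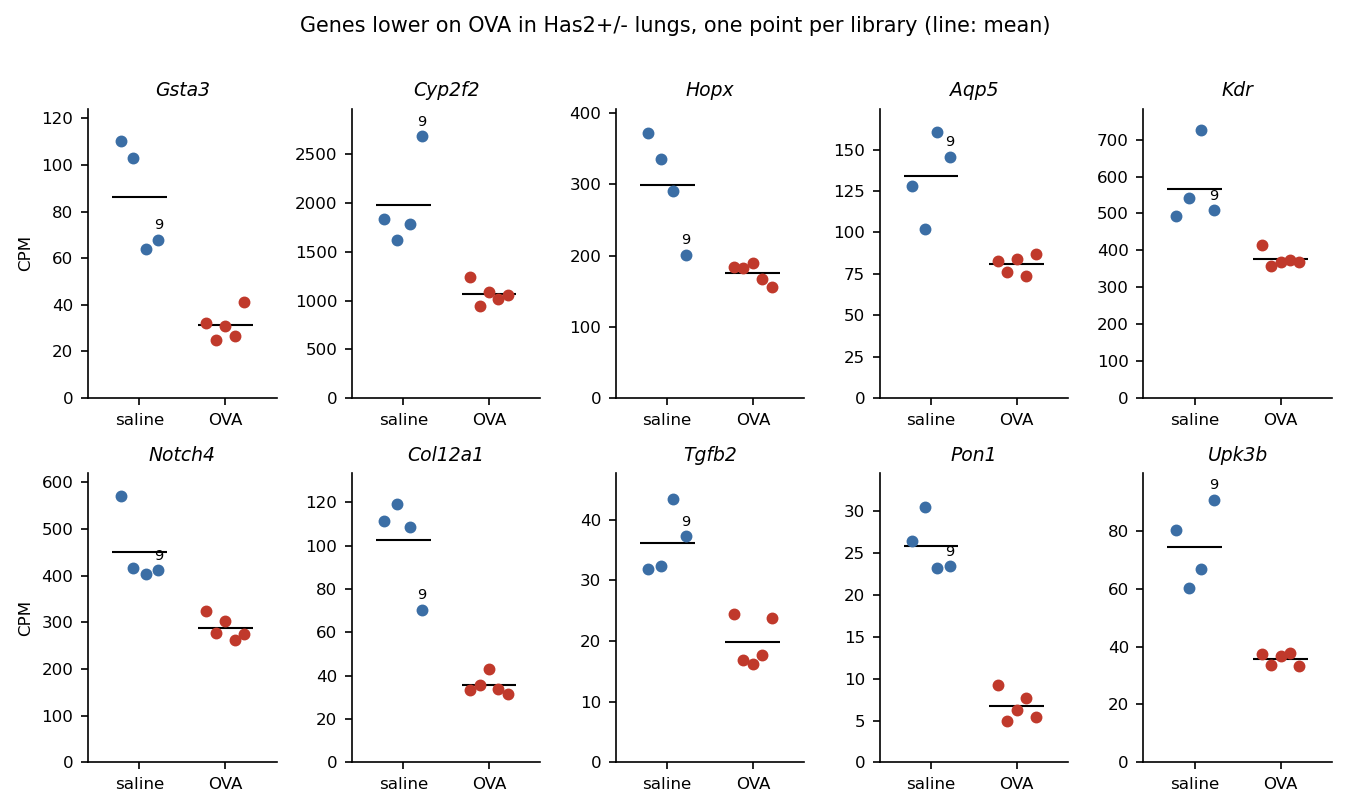
Levels of 10 genes that fell on OVA, in CPM on a linear axis from 0, with 1 point per *Has2*+/- library, saline in blue and OVA in red, and the group mean as a line. Every OVA point lies below every saline point, and for *Hopx* and *Col12a1* saline library 9, which is numbered, comes closest to the OVA points.

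Part of the vessel, muscle and fibroblast genes were called lower, and none was called higher. Of 21 capillary endothelial genes, 9 were called lower and none higher, and all 21 were negative (median -0.49), with 4 called without library 6, 5 without library 7 and 17 without library 9. The VEGF receptor *Kdr* measured 493, 541, 725 and 509 CPM on saline and 415, 358, 369, 374 and 369 CPM on OVA (log2 -0.59 ± 0.12), and *Kitl*, *Ednrb* and *Apln*, of the lung capillaries, fell with log2 values of -0.80, -0.73 and -0.72. Of 8 endothelial adhesion genes, 2 were called lower (median -0.25), *Esam* at log2 -0.45 and the prostaglandin transporter *Slco2a1* at -0.58, and neither was without library 6 (adjusted p = 0.013 and 0.0186). *Vcam1* and *Icam2* were not called (log2 0.21 ± 0.14 and -0.39 ± 0.14). Of 16 smooth muscle genes, 6 were called lower and none higher, and all 16 were negative (median -0.41), with 11 called by DESeq2 and 2 in a fit of the *Has2*+/- libraries alone. *Cnn1* (calponin) was at 48.3, 45.2, 41.7 and 64.2 CPM and 27.2, 28.1, 34.8, 28.5 and 26.8 CPM (log2 -0.77 ± 0.14), and *Des* and *Tagln* fell with log2 values of -0.55 and -0.43. *Hhip* was called at log2 -0.49, but not without library 8, 16 or 18 (adjusted p = 0.0116 without library 18) or in the fit of the *Has2*+/- libraries alone. *Acta2*, chosen after its values were seen, was not called (log2 -0.33 ± 0.10, adjusted p = 0.0147) but was by DESeq2 (adjusted p = 0.00685) and without library 6 or 8 (adjusted p = 0.00974 and 0.00964). Of 15 alveolar fibroblast genes, 5 were called lower and none higher (median -0.44), 2 without library 6, 8, 16 or 18, 3 without library 7 or 17 and 9 without library 9. *Ces1d* measured 493, 495, 355 and 391 CPM on saline and 230.1, 219, 239, 213 and 304 CPM on OVA (log2 -0.85 ± 0.11), and *Gpc3* and *Slc7a10* fell with log2 values of -0.45 and -0.71.

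Mesothelial, platelet and cardiac muscle genes fell as well. Of 5 mesothelial genes, 4 were called lower (median -0.80), led by *Upk3b* at 80.2, 60.2, 66.7 and 90.7 CPM on saline and 37.6, 33.6, 36.9, 37.9 and 33.2 CPM on OVA (log2 -1.05 ± 0.13), *Wt1* at log2 -1.01, *Lrrn4* at -0.80 and *Msln* at -0.69. Of 5 platelet genes tested, 3 were called lower (median -1.26), *Ppbp* at log2 -1.26, the integrin *Itga2b* at -0.97 and *Gp6* at -1.46, the last not without each of 5 libraries (adjusted p = 0.0445 without library 6). Cardiac muscle genes, which mouse pulmonary veins express, were called lower in 7 of 10 members (median -0.97), and their sum was 824 to 1484 CPM on saline and 384 to 689.6 CPM on OVA, without overlap. *Myl4* was at 71.2, 82.8, 65.5 and 79.8 CPM and 43.7, 30.8, 32.8, 44.0 and 39.1 CPM (log2 -0.97 ± 0.19), and *Actc1*, *Ryr2* and *Myl3* fell with log2 values of -0.86, -0.93 and -1.64. None of 6 erythroid genes was called (median -0.92), though all 6 were lower at an unadjusted p under 0.05, DESeq2 called 0, and 5 were called without library 9 and 1 without WT OVA library 11. The globin *Hbb-bt* was at 176, 241, 157 and 70.5 CPM and 89.6, 75.4, 74.1, 107 and 57.1 CPM (log2 -0.997 ± 0.29, adjusted p = 0.0122). Of 4 Schwann cell genes 1 was called lower (median -0.33), and 0 without library 6, 16, 17 or 18 or without 8 of the 10 WT libraries. Neither of 2 thymus genes tested (median 0.38) was called, with 0 at an unadjusted p under 0.05 and 0 by DESeq2. The 1 oesophagus or thyroid gene tested was not called either (log2 -0.80), was below an unadjusted p of 0.05 and was called without library 9 but not by DESeq2.

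The largest falls were mainly of metabolic genes, and part of them followed the adipocyte markers across libraries. *Htr2c*, a serotonin receptor, measured 2.32, 3.55, 2.84 and 3.25 CPM on saline and 0.640, 0.185, 0.349, 0 and 0 CPM on OVA (log2 -3.50 ± 0.52, adjusted p = 4.65e-05, log2 -4.27 without library 15). *Pon1*, a lipoprotein-associated esterase, was at 26.4, 30.5, 23.2 and 23.4 CPM and 9.28, 4.99, 6.29, 7.67 and 5.37 CPM (log2 -1.93 ± 0.21, adjusted p = 1.48e-06), and *Fabp1*, *Vstm2a*, *Ces1g* and *Mylk4* fell with log2 values of -2.09, -2.07, -1.93 and -1.89 (*Ces1g* -2.59 without library 19). *Cyp2e1* was at 94.5, 88.0, 11.2 and 40.1 CPM on saline and 10.6, 6.10, 5.07, 9.86 and 10.7 CPM on OVA (log2 -2.78 ± 0.53), and *Car3*, *Retn*, *Mrap* and *Thrsp*, known from fat tissue, fell with log2 values of -2.40, -2.62, -2.20 and -2.07. In each of these 5 genes saline library 8 was the lowest of its group. The defining adipocyte markers behaved alike. *Adipoq* (adiponectin) measured 36.3, 29.5, 5.34 and 23.6 CPM on saline and 5.28, 3.69, 2.97, 5.79 and 6.13 CPM on OVA (log2 -2.31 ± 0.52), and *Lep* (leptin), too sparse for the fit, had 28, 24, 9 and 14 counts against 0, 1, 2, 1 and 4 (exact permutation test, two-sided, p = 0.0159, adjusted 0.127). Of 4 adipocyte markers tested, 3 were called lower (median -1.67) and 1 without library 6, and the sum of all 6 was 58.5 to 182 CPM on saline and 35.3 to 58.9 CPM on OVA, so that library 8 lay at the top of the OVA range. The part of fat tissue in these falls was not tested. *Adipoq*, *Plin1* and *Mrap* were each not called without library 6 (adjusted p = 0.0125, 0.0113 and 0.0137), nor were *Plin1* and *Mrap* without library 7 or *Plin1* without library 16. *Apol11b* and *Cd209g* were called at log2 -2.41 and -2.05 and lost the call without 7 and 3 libraries (adjusted p = 0.0306 without library 7 and 0.0185 without library 9). *Ckmt2*, a mitochondrial creatine kinase of muscle, was at 10.01, 41.9, 7.51 and 11.7 CPM and 4.32, 3.88, 2.62, 4.23 and 2.68 CPM and was not called without library 7 (log2 -1.44, adjusted p = 0.0134). Of 7 skeletal muscle markers tested, none was called (median -3.01, 5 lower at an unadjusted p under 0.05, 0 by DESeq2). Without library 9 there were 3, without library 6, 8 or 18 there were 2, and without WT saline library 5 there was 1. Their sum over 9 markers was 26.0 to 1277 CPM on saline and 12.01 to 134 CPM on OVA, with libraries 7 and 18 the highest. *Ckm* had a log2 fold change of -2.06, and of -0.62 without library 7, and was called without library 6, 8, 9 or 18 (adjusted p = 0.00903, 0.0074, 0.00554 and 0.00783).

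More circadian clock genes were called lower than higher on OVA, in libraries that were split by *Dbp*. Of 19 members, 9 were called lower and 1 higher (median -0.83), and leaving out any 1 library gave 7 to 11 lower, with 2 higher without library 9. *Per2*, a core repressor of the clock, measured 354, 272, 238 and 304 CPM on saline and 50.4, 63.0, 72.7, 44.5 and 211 CPM on OVA (log2 -1.73 ± 0.35, adjusted p = 0.000772), with library 19 next to the saline range (-2.34 without library 19). *Per1* was at 325, 212, 312 and 250.3 CPM and 128, 87.2, 127, 59.8 and 191 CPM (log2 -1.22 ± 0.21), and the cryptochromes *Cry1* and *Cry2* fell with log2 values of -1.01 and -0.83. The output factors *Tef* and *Hlf* and the receptor *Rora* fell with log2 values of -1.14, -1.65 and -0.66, and *Bhlhe41*, which represses CLOCK and ARNTL, rose from 18.6, 14.8, 50.5 and 47.3 CPM to 66.3, 93.5, 86.1, 76.4 and 104 CPM (log2 1.39 ± 0.30). *Ciart* was called at log2 -1.04, but not without library 8 or 18 (adjusted p = 0.0142 without library 8). *Dbp*, at 13.9, 10.7, 191 and 197 CPM on saline and 11.04, 23.5, 30.2, 17.5 and 132 CPM on OVA, was split within both groups and was not called (log2 -1.28 ± 0.72), and *Arntl* ran opposite to it, at 20.6, 26.0, 6.50 and 5.86 CPM and 38.2, 28.6, 32.1, 28.5 and 7.86 CPM (log2 0.87 ± 0.39). *Npas2* went with *Arntl*, at 16.1, 14.9, 0.834 and 1.95 CPM and 26.1, 27.9, 22.9, 22.7 and 12.7 CPM (log2 1.37 ± 0.47), and *Nr1d1* with *Dbp* on saline, at 31.8, 17.9, 308 and 297 CPM and 93.6, 103, 126, 104 and 152 CPM (log2 -0.49 ± 0.54). Among the 6 libraries with low *Dbp*, that is without libraries 8, 9 and 19, the log2 fold change of *Nr1d1* was 2.08 and that of *Dbp* 0.72, both of the opposite sign. These libraries were picked by their *Dbp* after the values were seen, so the 2 values are a description and not a test. Only libraries 6 and 7 were left on saline. The part of the hour of collection in the clock values was not tested. *Per2*, *Tef*, *Hlf*, *Ciart*, *Bhlhe41*, *Dbp*, *Arntl*, *Npas2* and *Nr1d1* were chosen after their values were seen.

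The stress and hormone response lists had negative medians. Of 22 immediate-early genes, 5 were called lower and 2 higher (median -0.38, 19 negative), and 1 higher without library 6, 8 or 19. *Jun* measured 411, 351, 444 and 315 CPM on saline and 290.1, 276, 296, 228 and 252 CPM on OVA (log2 -0.50 ± 0.09), *Klf4* and *Nr4a2* fell with log2 values of -0.72 and -1.01, and *Egr2*, which macrophages and T cells induce, rose by log2 1.42. Of 14 glucocorticoid-responsive and metallothionein genes, 5 were called lower and 1 higher (median -0.71), 2 lower without library 6, 3 without library 18 and 0 higher without library 8. *Tsc22d3* (GILZ), a direct target of the glucocorticoid receptor, was at 617, 503, 235 and 174 CPM and 215, 152, 156, 111 and 151 CPM (log2 -1.29 ± 0.26), with saline library 9 inside the OVA range and library 8 just above it. *Klf9* was called at log2 -0.70 but not without library 6 (adjusted p = 0.0111), and *Sgk1* at 0.65 but not without library 8 (adjusted p = 0.0127). A fit of the *Has2*+/- libraries alone called 1 member of the list lower and 0 higher. In that fit *Tsc22d3*, *Klf9* and *Sgk1* were not called (adjusted p = 0.0128, 0.0189 and 0.0111). In both *Tsc22d3* and *Klf9*, saline libraries 6 and 7, those with low *Dbp*, were above libraries 8 and 9. Of 17 heat shock genes, 1 was called lower and none higher (median -0.43, 16 negative), 2 without WT saline library 1 or WT OVA library 10 or 13. It was *Dnajb4*, at 83.9, 101, 58.2 and 61.6 CPM on saline and 45.6, 46.5, 39.3, 35.2 and 35.8 CPM on OVA (log2 -0.91 ± 0.16). *Dnajb1*, *Dnaja1* and *Hspa1a* did not overlap between groups but were not called in the fit of all 4 groups (log2 -0.90 ± 0.26, -0.68 ± 0.26 and -1.85 ± 0.73). DESeq2 called 2 members of the list lower. A fit of the *Has2*+/- libraries alone called 3 lower, among them *Hspa1a* (log2 -1.86, adjusted p = 0.00338).

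The response of *Has2*+/- lungs was set beside that of WT lungs, measured in separate libraries, and no gene was called as different between them. In WT lungs 3175 genes (21.9%) were called, 1733 higher (12%) and 1442 lower (9.95%). Of the *Has2*+/- calls, 2070 were also called in WT in the same direction (78.3% of the *Has2*+/- calls and 65.2% of the WT calls), 1242 higher and 828 lower, and 0 in opposite directions. Of the 2643 *Has2*+/- calls, 2634 had the same sign in WT, with a median absolute log2 fold change of 0.74 in *Has2*+/- and 0.70 in WT lungs. Across all 14495 genes, which are not independent replicates and share libraries within each axis, Pearson's r of the fold changes was 0.922 and Spearman's rho 0.813. The interaction of genotype and OVA was called in 0 genes by edgeR and in 0 by DESeq2. The edgeR fit gave 594 genes at an unadjusted p under 0.05 (4.10%, where 5% of the genes tested are 725), and DESeq2 gave 518. The smallest adjusted p of DESeq2 was 0.0119, near the limit of 0.01. The edgeR number at an unadjusted p under 0.05 depended on the libraries. It was 513 without library 18, 993 without library 7, 1098 without libraries 7 and 8 and 1391 without libraries 8, 9 and 19. A total of 169 genes called in *Has2*+/- lungs were not called in WT lungs at an unadjusted p of 0.05 or more, but none of them passed the interaction test. Without libraries 8, 9 and 19 a single gene, *Spn* (CD43 of leukocytes), passed it, at log2 0.97 and an adjusted p of 0.00428.

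**Figure D5:**
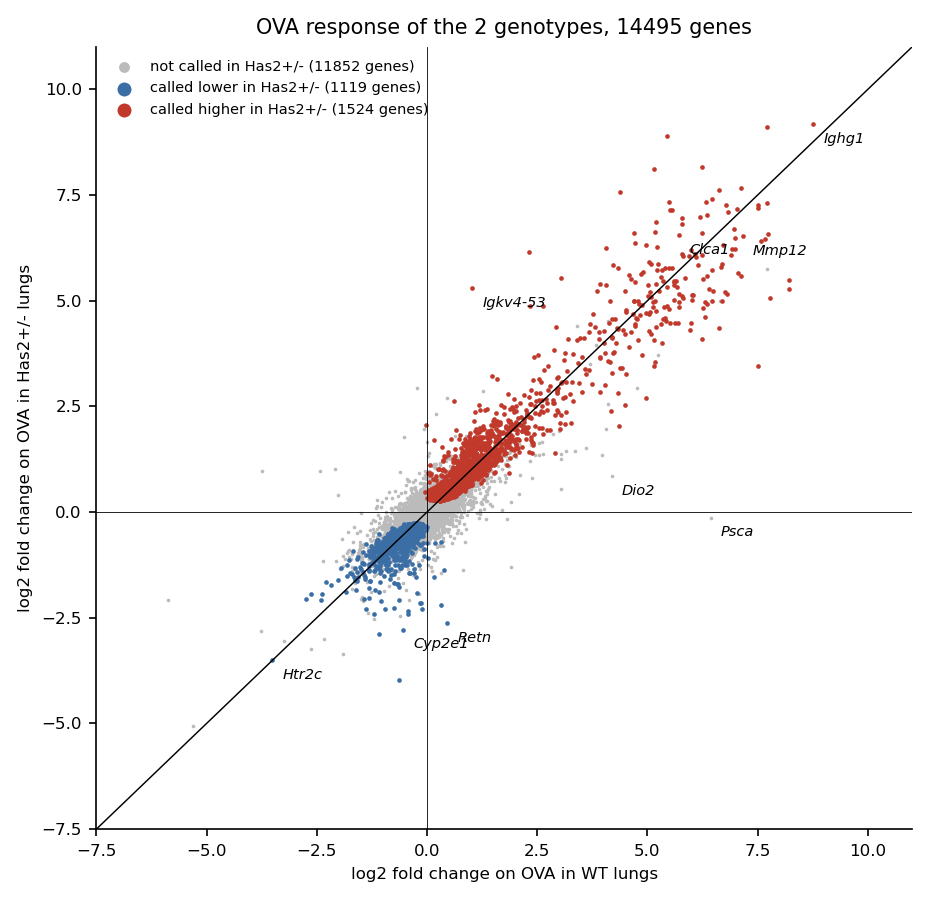
Log2 fold change on OVA in WT lungs (horizontal axis) and in *Has2*+/- lungs (vertical axis) for the 14495 tested genes, coloured by the call in *Has2*+/- lungs (1524 higher in red, 1119 lower in blue, 11852 not called in grey), with the line of equality and some genes named. Most called genes lie along the line (Pearson's r 0.922 across genes), and *Retn*, *Cyp2e1*, *Psca*, *Dio2* and *Igkv4-53* lie off it.

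The genes with the smallest interaction p, none of which passed adjustment (smallest edgeR adjusted p 1.00), included matrix, fat and contractile genes. *Thbs1*, the matricellular thrombospondin, was at 206, 245, 174 and 243 CPM on *Has2*+/- saline and 139.5, 192, 182, 158 and 141 CPM on *Has2*+/- OVA, with log2 fold changes of -0.42 in *Has2*+/- and 0.41 in WT lungs (difference -0.82 ± 0.17, SE). *Retn* (resistin), 1 of the fat genes above, had log2 fold changes of -2.62 in *Has2*+/- and 0.46 in WT lungs (difference -3.08 ± 0.71). Its mean level was 12.6 ± 6.32 CPM (SD, n = 4) in *Has2*+/- saline and 2.60 ± 1.11 CPM (SD, n = 5) in WT saline libraries, against 2.00 ± 0.874 and 3.63 ± 3.21 CPM on OVA. The amine oxidase *Aoc3* had log2 fold changes of -0.71 and 0.32 (difference -1.03 ± 0.27). For *Synpo2* of the contractile apparatus the log2 fold changes were -0.17 and 0.33 (difference -0.50 ± 0.11), for the malic enzyme *Me1* 0.07 and 0.84 (difference -0.77 ± 0.18), and for the stress factor *Atf4* -0.11 and 0.22 (difference -0.33 ± 0.08). *Psca*, a surface antigen of secretory epithelia, stayed at 4.34 to 5.37 CPM on saline and 3.44 to 5.56 CPM on OVA in *Has2*+/- lungs, with log2 -0.13 against 6.43 in WT (difference -6.56 ± 1.51). *Dio2* and *Fetub* had log2 values of 0.86 and -0.16 against 4.18 and 1.33 in WT lungs (differences -3.33 ± 0.88 and -1.49 ± 0.38), and the kappa segment *Igkv4-53* 5.30 against 1.03 (difference 4.27 ± 1.10). Some lists had different counts in the genotypes without any member passing the interaction test. Cell cycle genes were called in 23 of 30 members in *Has2*+/- and 5 in WT lungs (medians 1.39 and 0.82), adipocyte markers in 3 and 0 of 4 (medians -1.67 and -0.17), and smooth muscle genes were called lower in 6 and 2 of 16 (medians -0.41 and -0.05). Erythroid genes were called lower in 0 and 6 of 6 (medians -0.92 and -1.54), and cytotoxic lymphocyte genes in 0 and 4 of 12 (medians 0.07 and -0.65). The goblet cell list was called higher in 17 and 18 of 19 members (medians 2.37 and 2.72), and the alveolar type 1 list lower in 9 and 10 of 12 (medians -0.61 and -0.75).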

How the data were processed

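Whole-lung RNA from 19 mice, 1 library per mouse, was sequenced by the authors in paired 36-base reads, and CLC Genomics Workbench 10.1.1 mapped the reads to the mouse genome mm10. The deposited table held the authors' total gene read counts per library, which are not normalised, and these counts alone were used. Another 38 per-library columns were not used. The columns of the authors' own comparisons (p-values, fold changes and false discovery rates of their tests) were not used either. The annotation and the strand setting of the counting are not given in the sources used here, so overlapping and antisense genes cannot be separated. The sources name different library kits (ribosomal RNA depletion with a directional kit, or a stranded mRNA kit), which was not resolved. Coordinates are those of the table on mm10, counted from 1. Column names gave the group and a running number.

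Analyses used R 4.3.3 with edgeR 4.0.16, limma 3.58.1 and DESeq2 1.42.0, and Python 3.11.15 (matplotlib 3.10.9, scipy 1.17.1, pandas 2.3.3, numpy 2.4.6). Genes with at least 10 counts in enough libraries (edgeR's filterByExpr, total at least 15, share 0.7) were tested, 14495 of 49585, while 26540 genes had no count. One quasi-likelihood model over the 4 groups (TMM scaling, 15 residual degrees of freedom, common biological coefficient of variation 0.138) gave the OVA effect in *Has2*+/- lungs, the same effect in WT lungs and their interaction. A gene was called at a Benjamini-Hochberg adjusted p under 0.01 and a fold above 1.2. All adjusted p-values in the text are from edgeR over all tested genes unless DESeq2 or a permutation test is named. No 2 libraries held identical counts. CPM were counts per 1000000 of the library's total after TMM scaling, and the unscaled library totals were 4446534 to 7048676 counts over all 19. Counting intervals and lower bounds are exact 95% intervals, or set a group without counts to 3 counts, and cover counting error only. Sparse genes that could not be fitted had an exact permutation test over the 9 libraries (126 arrangements, adjusted over 64 genes).

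Genes were named by a rule: among calls without overlap between groups, the 14 genes that rose most and the 14 that fell most (no immunoglobulin or T cell receptor segments, no predicted genes), the 6 segments and up to 4 members of each of 57 lists with the smallest p, *Has2*, and the 10 genes with the smallest interaction p. Others are given as chosen after their values were seen. Some list members are counted but not reported here by name. The comparison, the lists and the members were chosen with earlier results of these data known. The tests were checked on simulated data. The alternatives were DESeq2, other scaling, filters and thresholds, the *Has2*+/- libraries alone, each library left out, and, chosen after seeing the data, the omission of libraries 9 and 19, of 7 and 8, and of 8, 9 and 19. The promoter sequences are from RefSeq (GRCm38.p6), 1 per gene, from 250 bases before to 50 after the first listed start.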

Additional observations from a re-analysis of the deposited data

Results flagged for a closer look

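Of 558 groups of libraries examined for 279 genes, 52 held a library whose gap to the nearest other library was too large a share of the group's range for groups of 4 or 5 (Dixon's 95% limit). Chance flags about 1 in 20 groups, and several of the genes named move together, so the flags are not independent.

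Saline library 9 accounted for 21 of them, always as the highest of its group. It held 52.1 CPM of *Ighg1*, 33.4 CPM of *Ighg2b* and 167 CPM of *Ighg3*, of the immunoglobulins. Of mucus and secretory genes it held 75.3 CPM of *Clca1*, 22.3 CPM of *Muc5ac*, 613 CPM of *Muc5b*, 69.2 CPM of *Bpifb1*, 349 CPM of *Pigr*, 320.6 CPM of *Scgb3a2*, 18102 CPM of *Scgb1a1* and 0.651 CPM of *Capn9*. Of immune genes it held 163 CPM of *Retnla*, 6.29 CPM of *Ms4a7*, 11.1 CPM of *Cd86*, 2.60 CPM of *Tigit*, 0.434 CPM of *Ccr3* and 0.434 CPM of *Mcpt2*. Its remaining values were 14.8 CPM of *Cenpe* and 43.8 CPM of *Top2a*, of dividing cells, 42.5 CPM of the mesothelial gene *Lrrn4* and 126 CPM of *Synpo2*.

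OVA library 19 stood apart in 8 genes. It had the highest clock gene levels of its group, 132 CPM of *Dbp*, 211 CPM of *Per2*, 376 CPM of *Tef* and 52.5 CPM of *Hlf*, and also 3.83 CPM of *Ces1g*, 304 CPM of *Ces1d*, 21.9 CPM of *Ifit3* and 35.1 CPM of *Actc1*. OVA library 18 was the highest for the T cell genes *Lck* (99.1 CPM), *Trbc2* (38.5 CPM) and *Cd3e* (49.5 CPM), for the thymocyte gene *Dntt* (19.4 CPM) and for the muscle gene *Ckm* (26.0 CPM). Saline library 7 was the highest for the muscle genes *Ckm* (152 CPM) and *Ckmt2* (41.9 CPM) and for *Ifit3* (41.3 CPM), the lowest for *Smad6* (278 CPM), and the single saline library with a count of *Gcnt3* and *Fut1* (0.187 CPM each). Saline library 8 was the lowest for *Retn* (3.17 CPM) and *Ctsb* (274 CPM) and the highest for *Mmp8* (3.84 CPM) and *Slc6a12* (0.334 CPM).

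Single genes set the other libraries apart. Saline library 6 was the highest for *Arg1* (2.18 CPM), *Col23a1* (117 CPM) and *Notch4* (570.5 CPM). Among OVA libraries, library 15 was the highest for *Il5ra* (7.04 CPM) and *Kdr* (415 CPM) and the lowest for *Dhcr7* (21.4 CPM), and library 17 the highest for *Cnn1* (34.8 CPM) and the lowest for *Awat1* (1.40 CPM).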

How the results depend on the processing

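The number of genes called in *Has2*+/- lungs, 2643, stayed within 1.5 times under DESeq2 (2977), relative log expression scaling (2645), no filter (2557) and a filter of 20 counts in 4 libraries (2526), and without libraries 9 and 19 (3135) or 8, 9 and 19 (3398). It moved further in the other settings. In a fit of the *Has2*+/- libraries alone it was 1559 (520 lower), without libraries 7 and 8 it was 1317 (812 higher, 505 lower), at an adjusted p under 0.05 it was 3985 (1879 lower) and at a fold above 2 it was 960 (792 higher, 168 lower), against 972 in WT lungs (802 higher, 170 lower). Leaving out 1 library at a time gave 1932 to 3261 calls, 1162 to 1768 higher and 716 to 1493 lower, with the lowest numbers of falls without library 6 (716) and library 18 (742). The corresponding ranges in WT lungs were 2464 to 3432, 1403 to 1858 and 1061 to 1574. The interaction had 0 calls in every setting but the one without libraries 8, 9 and 19, where it had 1 (1 higher). The cause of these moves was not tested. In the 250 bases before the start alone, CACGTG was in 7.84% of the promoters of genes called higher, 7.46% of those called lower and 8.08% of all, the word with 4 bases between TTC and GAA in 6.18%, 4.15% and 4.51%, and that with 3 bases in 6.37%, 3.67% and 6.03%.

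Single genes changed sign 6 times. *Ighg3* ran from log2 -1.68 (without library 7) to 1.75 (without 9) over single omissions and was at 1.58 without 9 and 19 and 1.80 without 8, 9 and 19, *Dbp* at 0.72 without 8, 9 and 19, and *Nr1d1* ran from -0.87 (without 7) to 0.028 (without 8) and was at 2.08 without 8, 9 and 19. Of the other values of single genes, 7435 kept their direction and side of the threshold, 322 lost it and 61 gained it. No paired analysis was possible because the count columns carry a group and a running number but not the replicate numbers of the sample titles. Genes under about 10 counts in the smallest group, among them *Has2*, *Il4*, *Il5* and *Il13*, are limited by depth, and with 5 against 4 libraries no exact test could go below p = 0.0159.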
